A study of Mus musculus with 6 samples.

Results

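The germ cell specification genes described here are Prdm1, Prdm14, Tfap2c, Nanos3, Dppa3, Kit and Ifitm3, taken by name from a list of 7 among the 21853 protein-coding genes of GENCODE M21 on the 21 assembled mouse chromosomes. The cells were mouse PGCLCs (primordial germ cell-like cells) of strain 129Sv/J, untreated and taken on day 2, and in them Tex10 carries an HA tag at its C terminus. Chromatin immunoprecipitation sequencing gave 2 HA-Tex10, 2 H3K4me3 and 2 input samples. The deposited data used here are interval lists, 1 per antibody, without scores, so there is no value per replicate, no spread between samples and no test, and read depth is unknown. PGCLCs are a culture model of the embryonic founders of eggs and sperm, and the day 2 cells were not described as sorted in the labels, so signal of other cells in the culture cannot be told apart from theirs.

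In the mouse embryo, BMP and WNT signals lead a few epiblast cells to switch on the transcription factors Prdm1 (Blimp1), Prdm14 and Tfap2c, which together repress the somatic programme and start the germ cell one. Nanos3, an RNA-binding protein, keeps the new germ cells alive. Dppa3 (Stella) guards DNA methylation in the early embryo and marks founder germ cells. Kit is the receptor of stem cell factor that migrating germ cells need, and Ifitm3 (Fragilis) is an interferon-induced membrane protein that marks cells competent to become germ cells. H3K4me3, trimethylated lysine 4 of histone H3, lies at the transcription start sites (TSS) of active and poised genes. Tex10 is a nuclear protein of a complex with Senp3 and of ribosome assembly, and it is also known in embryonic stem cells as a partner of Sox2.

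H3K4me3 lay within 1 kb of a coding TSS at 5 of the 7 genes (Prdm1, Prdm14, Tfap2c, Kit and Ifitm3), where 60.9% of all protein-coding genes had it. HA-Tex10 lay within 1 kb of a TSS at 1 of the 7, Kit, against 8.66% of all genes. In the wider window of the gene body plus 10 kb on each side, all 7 genes had H3K4me3 (70.7% of all genes) and 3 had HA-Tex10 (16.9% of all genes), namely Nanos3, Kit and Ifitm3. Nanos3 and Ifitm3 were the 2 with HA-Tex10 in the window but not at a TSS, as were 8.27% of all genes. Nanos3 and Dppa3 were the 2 with H3K4me3 in the window but not at a TSS, as were 9.77% of all genes. For 3 members, the transcription factor genes, the nearest HA-Tex10 interval was over 100 kb from a TSS, against 59.9% of all genes. Where no interval is listed, signal was not detectable at the unknown depth, which does not show that Tex10 or the mark was absent.

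The sequences under these patterns are shown first, because the 3 genes with HA-Tex10 differed in where it lay. All are from the C57BL/6J reference and not from the 129Sv/J cells, and are written 5′ to 3′ on the strand of the gene, with the dinucleotide CG in capitals. At Kit, the part of the HA-Tex10 interval outside every annotated exon was chr5:75576066-75576140 (plus strand, GRCm38). At Nanos3, 300 central bases of the intronic interval were chr8:84180588-84180887 (minus strand). At Ifitm3, the whole interval past the end of the gene was chr7:141009169-141009387 (minus strand).
Kit HA-Tex10: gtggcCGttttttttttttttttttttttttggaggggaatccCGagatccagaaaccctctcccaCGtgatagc
Nanos3 HA-Tex10: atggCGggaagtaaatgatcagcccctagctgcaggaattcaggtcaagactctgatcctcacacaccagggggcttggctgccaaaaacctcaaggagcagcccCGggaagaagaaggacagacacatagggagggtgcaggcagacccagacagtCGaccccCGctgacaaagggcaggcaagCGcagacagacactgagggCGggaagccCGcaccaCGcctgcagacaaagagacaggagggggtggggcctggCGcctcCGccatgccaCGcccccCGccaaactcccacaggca
Ifitm3 HA-Tex10: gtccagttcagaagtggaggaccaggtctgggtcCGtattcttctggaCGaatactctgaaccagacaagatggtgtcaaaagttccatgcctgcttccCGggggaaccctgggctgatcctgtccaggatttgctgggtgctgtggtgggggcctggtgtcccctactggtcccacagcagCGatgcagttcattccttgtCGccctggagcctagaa

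The promoters of 4 of the 7 genes had a RefSeq window (GRCm38.p6), and their bases before the 5′-most coding TSS are set side by side. H3K4me3 lay within 1 kb of a coding TSS at Kit, Prdm1 and Ifitm3 and not at Nanos3. At Ifitm3 it covered 0 bases in the 1 kb upstream of the TSS, so the Ifitm3 stretch printed was itself unmarked. The stretches were chr5:75574737-75574915 for Kit (plus strand), chr10:44458749-44458998 for Prdm1, chr8:84176553-84176802 for Nanos3 and chr7:141010771-141010994 for Ifitm3 (all minus strand).
Kit promoter: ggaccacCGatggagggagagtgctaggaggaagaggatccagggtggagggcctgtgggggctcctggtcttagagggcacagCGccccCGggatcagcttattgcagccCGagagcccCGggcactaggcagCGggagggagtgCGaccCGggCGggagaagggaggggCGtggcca
Prdm1 promoter: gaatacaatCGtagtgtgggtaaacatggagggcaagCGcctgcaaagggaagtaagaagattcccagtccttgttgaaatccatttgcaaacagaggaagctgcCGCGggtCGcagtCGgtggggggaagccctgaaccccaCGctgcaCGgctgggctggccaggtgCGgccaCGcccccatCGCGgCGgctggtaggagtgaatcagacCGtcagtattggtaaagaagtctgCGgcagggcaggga
Nanos3 promoter: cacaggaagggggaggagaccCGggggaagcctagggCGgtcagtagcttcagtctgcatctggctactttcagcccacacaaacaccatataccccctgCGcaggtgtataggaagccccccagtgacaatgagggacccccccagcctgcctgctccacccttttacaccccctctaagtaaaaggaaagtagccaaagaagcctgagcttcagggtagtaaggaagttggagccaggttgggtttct
Ifitm3 promoter: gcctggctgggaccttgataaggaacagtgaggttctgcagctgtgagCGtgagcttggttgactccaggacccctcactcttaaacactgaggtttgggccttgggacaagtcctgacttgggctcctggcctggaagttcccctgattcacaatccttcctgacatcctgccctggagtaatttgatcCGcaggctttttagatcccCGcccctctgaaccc
The Kit stretch held 10 CG in 179 bases and the Prdm1 stretch 15 in 250. The Nanos3 stretch held 3 in 250 and the Ifitm3 stretch 3 in 224.

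**Figure D1:**
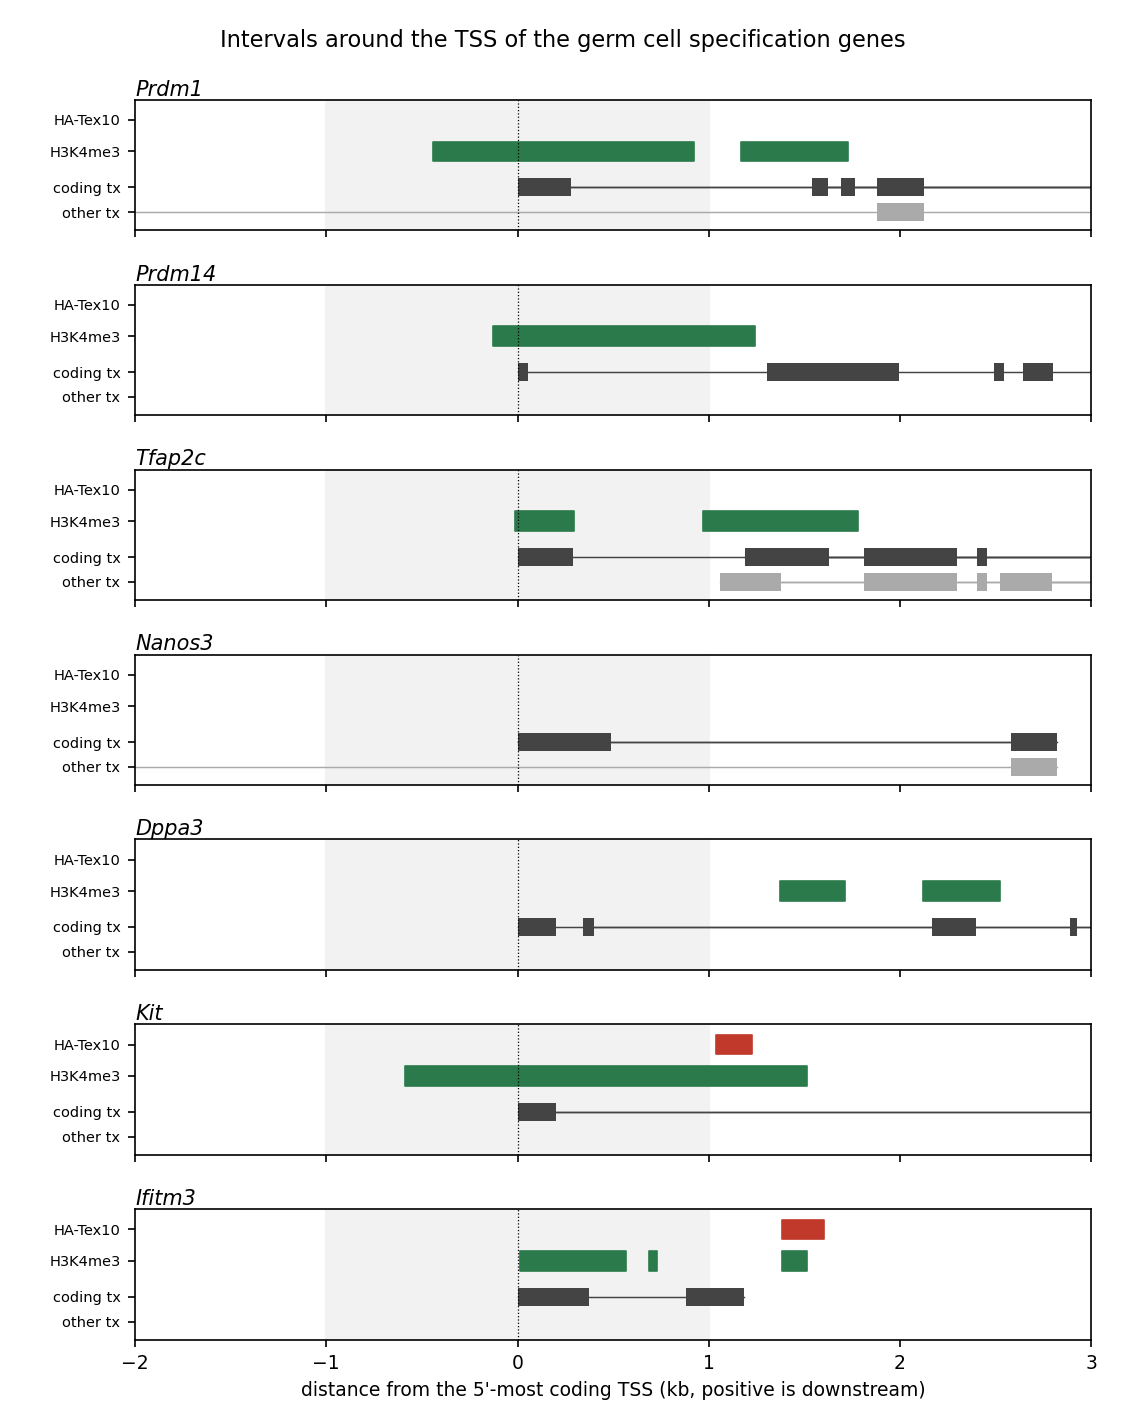
Intervals from 2 kb upstream to 3 kb downstream of the 5′-most coding TSS of each gene (horizontal axis in kb, dotted line at the TSS, grey band the 1 kb on each side). Red bars are HA-Tex10 intervals, green bars H3K4me3 intervals, dark boxes exons of coding transcripts and light boxes exons of other transcripts; Nanos3 and Dppa3 have no green bar in the band, and red bars appear at Kit and Ifitm3, downstream of the TSS.

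Prdm1 (ENSMUSG00000038151.13, chr10:44437177-44528501, minus strand) had the longest body of the 7 genes, 91.3 kb, because a non-coding retained-intron transcript starts far upstream of the 3 coding TSS. Its widest promoter interval of H3K4me3 was 1363 bp wide, chr10:44457827-44459189, and ran from 441 bp upstream to 921 bp downstream of the 5′-most coding TSS, over exon 1. A second interval of 557 bp, 249 bp further downstream, covered the remaining coding TSS and reached into exon 2 of the longest coding transcript. Further intervals lay far from these TSS. The interval of 1128 bp at chr10:44440970-44442097 covered 1039 bases of the coding sequence in exon 6 of the longest coding transcript, and a neighbour of 257 bp lay in the intron before it. A last interval of 907 bp lay 631 bp upstream of the retained-intron transcript's start and 574 bp from a predicted RefSeq start of Prdm1. In all, H3K4me3 filled 4212 bases of the gene window, more bases than at 85.4% of the 15440 genes with any. That rank counts bases, and the window of 111 kb was longer than the median of 37.4 kb. The share of the window filled was 3.78%. At Tfap2c it was 3.86%, although by bases Tfap2c exceeded only 24.6% of these genes.

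Prdm14 (ENSMUSG00000042414.7, chr1:13113457-13127163, minus strand) has 1 annotated TSS, which lay inside an interval of 1367 bp, chr1:13125923-13127289. This interval was lopsided, with 126 bp upstream of the TSS and 1240 bp downstream, over exon 1 and into intron 1. Beyond the 3′ end of the gene, 3 more intervals of 849, 263 and 139 bp stood together at chr1:13103468-13105484, from 21679 to 23695 bp downstream of the TSS. No annotated gene overlapped them and the nearest coding TSS was that of Prdm14 itself.

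Tfap2c (ENSMUSG00000028640.11, chr2:172549593-172558622, plus strand) encodes transcription factor AP-2 gamma. Its 5′-most TSS lay in a narrow interval of 309 bp, chr2:172549578-172549886, which reached 15 bp upstream. The wider interval of 812 bp, chr2:172550562-172551373, lay 675 bp further downstream, over the 2 other coding TSS, so the mark was split between the gene's alternative starts. These were the only H3K4me3 intervals in its window, and filled 3.86% of it.

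HA-Tex10 was not found within 100 kb of the body of any of these 3 transcription factor genes. From the nearest coding TSS, the closest one was 189 kb away for Prdm1, 344 kb for Tfap2c and 469 kb for Prdm14. The median over all 21853 genes was 162 kb, so distances of this size were common. Genes with H3K4me3 had a median of 108 kb, and 61.6%, 73.7% and 79.4% of them had HA-Tex10 nearer than Prdm1, Tfap2c and Prdm14 did. The interval nearest to Prdm1 contained a TSS of another gene, Atg5, which encodes an autophagy protein. Those nearest to Prdm14 (nearest coding TSS Sulf1, at 34468 bp) and Tfap2c (Mc3r, at 42947 bp) were mostly repeated sequence. Of their 32-base words, 96.4% and 83.3% were found more than once in the reference. Mostly repeated intervals made up 39.7% of the 4238 HA-Tex10 intervals, so they were common in that list. Among the 29002 H3K4me3 intervals the share was 19.1%. Where mostly repeated intervals belong is uncertain.

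**Figure D2:**
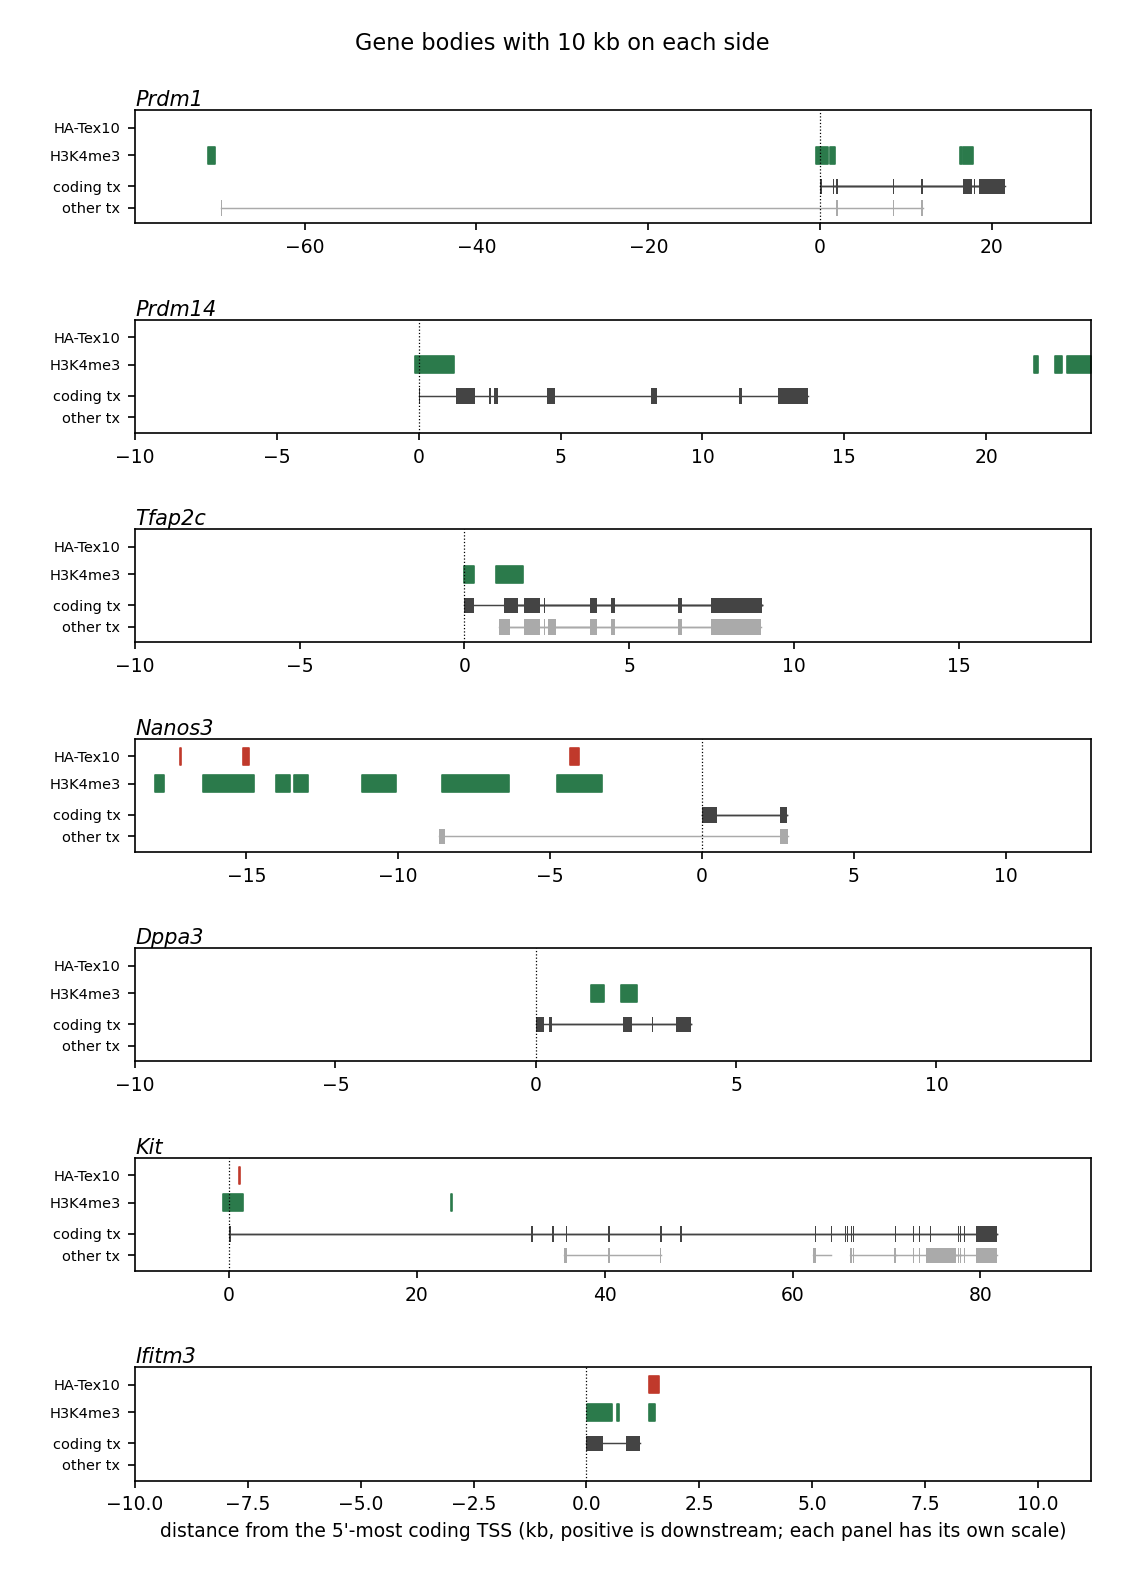
Each gene's body with 10 kb on each side (horizontal axis in kb from the 5′-most coding TSS, a scale of its own per panel), with bars as in the plot of the promoters. Nanos3 shows 7 green and 3 red bars, all upstream of its coding TSS, while Prdm1, Prdm14, Tfap2c and Dppa3 show no red bar.

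Nanos3 (ENSMUSG00000056155.6, chr8:84173731-84185217, minus strand) was the reverse case, with no interval of either kind within 1 kb of its coding TSS and the densest marking of the 7 genes upstream of it. Its window held 7 H3K4me3 intervals, a number reached or passed by 2.83% of genes with any, which filled 7812 bases or 24.8% of the window. The median gene with any had 2 intervals and 1986 bases, and 98.2% of them had fewer bases than Nanos3. The interval nearest to the coding TSS was 1508 bp wide, chr8:84179825-84181332, and began 3273 bp upstream. The widest, of 2213 bp at chr8:84182891-84185103, ended 114 bp from the start of an annotated non-coding Nanos3 transcript, so Nanos3 counted as marked once the starts of non-coding transcripts were included. Only the intervals of 1508 and 2213 bp lay in the gene. The others were in the 10 kb flank upstream of it, where those of 1657 and 320 bp overlapped the lincRNA gene Gm26887.

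HA-Tex10 had 3 intervals in this window. The one in the gene, chr8:84180586-84180888, was 303 bp wide, lay 4034 bp upstream of the coding TSS in the intron of the non-coding transcript, and fell wholly within the 1508 bp H3K4me3 interval. The microRNA genes Mir181c and Mir181d lie between these intervals and the coding TSS on the same strand, with Mir181c 1625 bp downstream of the HA-Tex10 interval and 864 bp downstream of the H3K4me3 interval. Another of 181 bp, chr8:84191471-84191651, met no annotated gene and lay within an H3K4me3 interval of 1657 bp that overlaps the lincRNA gene Gm26887. The last was 33 bp wide, with 4.08% of the list narrower still, lay in Gm26887 and met no H3K4me3. Chromosome 8 holds 17.1% of all HA-Tex10 intervals and 4.75% of the genes, and 50.8% of its genes had HA-Tex10 in the body plus 10 kb, so HA-Tex10 near Nanos3 is read against the share of its chromosome. At the TSS 30.0% of chromosome 8 genes had it, and Nanos3 did not. The nearest other coding TSS belonged to 4930432K21Rik and Cc2d1a, 25479 and 25795 bp from Nanos3, and both genes had H3K4me3 and HA-Tex10 there.

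Dppa3 (ENSMUSG00000046323.8, chr6:122626410-122630272, plus strand) was the other gene with an unmarked promoter. Its first H3K4me3 interval was 343 bp wide, chr6:122627782-122628124, in intron 1, and missed the 1 kb limit by 29 bp, since it began 1029 bp from the nearest coding TSS. The second, of 405 bp at chr6:122628529-122628933, covered 233 coding bases of exon 2. In the latter, 42.4% of the words read were repeated in the reference. Together they made 748 bases, more than at 13.8% of genes with any H3K4me3. The nearest HA-Tex10 interval, chr6:122615426-122615776, was 351 bp wide and lay 10634 bp upstream of Dppa3, just outside the window. All of its words were repeated, it met no H3K4me3, and the nearest coding TSS was that of Gdf3, a TGF-beta family ligand, at 5339 bp. Among HA-Tex10 intervals that meet H3K4me3, the nearest to Dppa3 was 75878 bp away.

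Kit (ENSMUSG00000005672.12, chr5:75574916-75656722, plus strand) had the widest promoter mark of the 7 genes. The interval of 2101 bp, chr5:75574328-75576428, ran from 588 bp upstream to 1512 bp downstream of the 5′-most TSS, over exon 1 and the start of intron 1. A further interval of 113 bp lay deep in intron 1, 23682 bp downstream of that TSS. HA-Tex10 had 1 interval of 186 bp, chr5:75575955-75576140, inside the promoter mark and in intron 1 of both coding transcripts of GENCODE. It began 1000 bp from the nearer coding TSS and 1039 bp from the other, so it met the 1 kb rule by its edge alone. The starts of the curated RefSeq transcripts lay 968 and 964 bp away. Predicted RefSeq models of Kit start inside intron 1, 212 and 203 bp upstream of the interval, and their first exon covered 111 of its 186 bases. The interval was almost free of repeated words, at 0.6%, and was narrower than most, with 30.7% of HA-Tex10 intervals narrower still.

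Ifitm3 (ENSMUSG00000025492.6, chr7:141009586-141010770, minus strand) is the shortest of the 7 genes, at 1185 bp. H3K4me3 began 14 bp downstream of its TSS, in an interval of 553 bp, chr7:141010204-141010756, that lay over most of exon 1, and a fragment of 44 bp followed in the intron after 118 bp. The TSS base itself and the 1 kb upstream of it were not covered, whereas 73.5% of the 13306 genes with H3K4me3 had the 5′-most TSS base covered, with a median of 311 marked bases in the upstream kb. The curated RefSeq start of Ifitm3, at 141010744, lay inside the 553 bp interval, so whether the start was covered depended on the annotation. The HA-Tex10 interval of 219 bp, chr7:141009169-141009387, lay past the 3′ end of the gene, 1383 bp from the TSS, and shared 133 bases with an H3K4me3 interval of 134 bp. It held no repeated words, whereas 37.2% of those in the promoter interval were repeated. The neighbouring Ifitm6 had its TSS within 10 kb of Ifitm3 and neither interval there.

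Over the 7 windows there were 5 HA-Tex10 intervals, and 4 of them overlapped H3K4me3, where 69.3% of the 4238 HA-Tex10 intervals did. At Kit and Ifitm3 HA-Tex10 lay downstream of the coding TSS, and at Nanos3 all 3 intervals lay upstream. None covered a coding TSS of its gene.

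**Figure D3:**
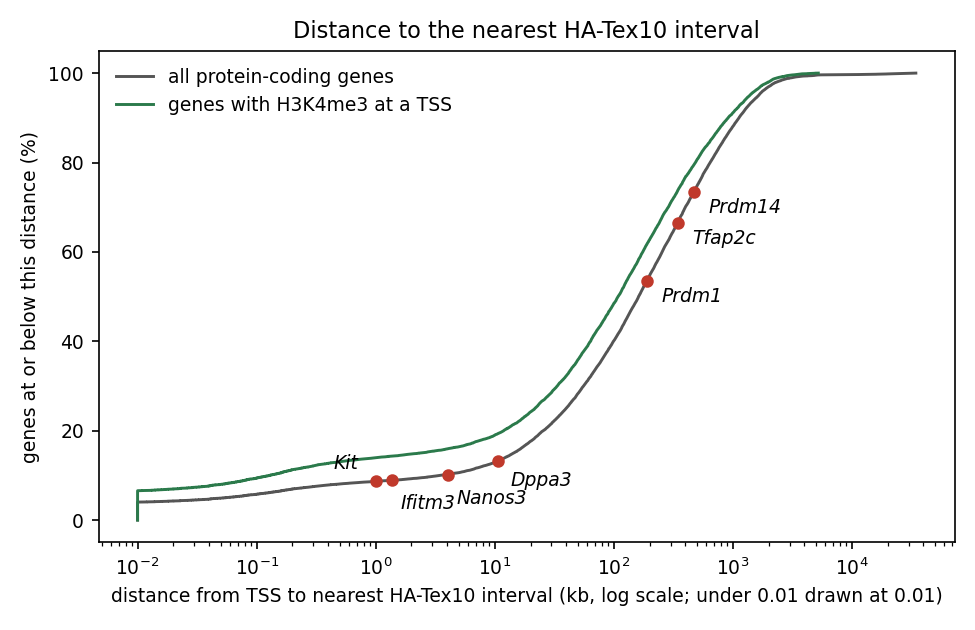
Share of genes (vertical axis, %) whose nearest HA-Tex10 interval lies within a given distance of a coding TSS (horizontal axis, kb, log scale), for all protein-coding genes in grey and for genes with H3K4me3 at a TSS in green. Red points mark the 7 genes on the grey curve, with Kit, Ifitm3, Nanos3 and Dppa3 at 1.00 to 10.6 kb and Prdm1, Tfap2c and Prdm14 at 189 to 469 kb, with none between.

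By distance to HA-Tex10, Kit came first at 1.00 kb, followed by Ifitm3 at 1.38 kb, Nanos3 at 4.03 kb and Dppa3 at 10.6 kb. Between 8.65% and 13.2% of all genes had HA-Tex10 nearer than these 4 did. The median of the 7 distances, 10.6 kb, was that of Dppa3 and so rested on an interval of repeated sequence, and the lower quartile of all genes was 39.8 kb. Among HA-Tex10 intervals that meet H3K4me3 alone, the distance of Dppa3 and with it the median became 75878 bp. The other 6 genes kept their distances. The quartile of 39.8 kb is for all HA-Tex10 intervals, and none was computed for this shorter list. Dppa3 then stood apart from Kit, Ifitm3 and Nanos3, so which genes count as near depended on that interval. The 3 transcription factor genes were the farthest under both lists. No test was made of this order.

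**Figure D4:**
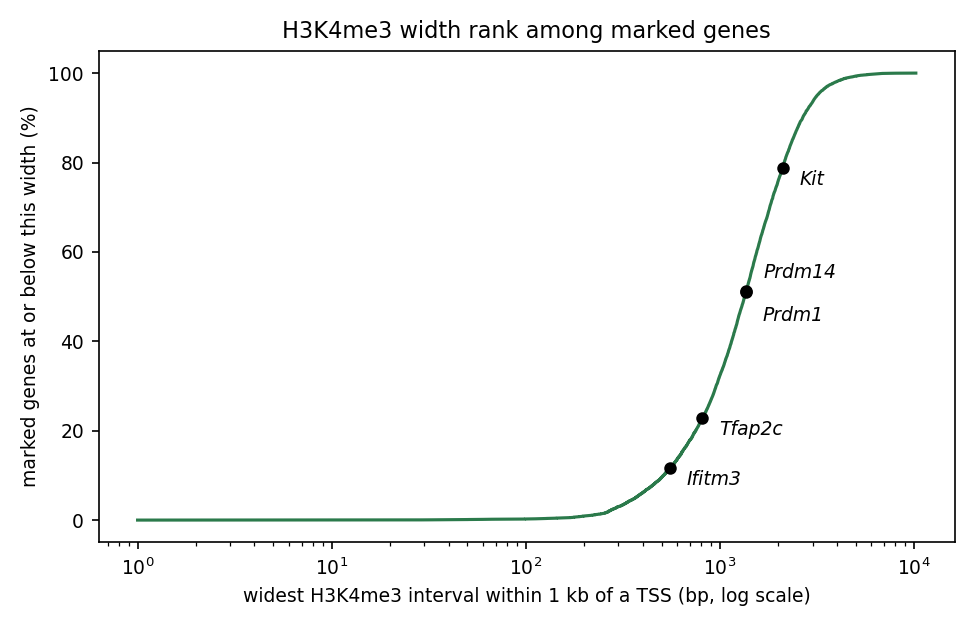
Cumulative share of the 13306 genes with H3K4me3 within 1 kb of a TSS (vertical axis, %) against the width of their widest such interval (horizontal axis, bp, log scale). Black points mark the 5 marked genes, from Ifitm3 at 553 bp to Kit at 2101 bp, on both sides of the median of 1342 bp.

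Ranked by its widest promoter interval, Kit stood at 2819 of 13306 marked genes, wider than 78.8% of them. Prdm14 (rank 6472, 51.3%) and Prdm1 (rank 6513, 51.0%) were near the middle and 4 bp apart. Tfap2c ranked 10261, wider than 22.8%, and Ifitm3 ranked 11756, wider than 11.6%. The 5 genes had a median of 1363 bp against 1342 bp for all marked genes, with quartiles of 861 and 1967 bp, so their median was close to that of all marked genes. Genes of the same width as each member included Kdm1b and Prdm15 for Kit, Man2a2 and Rab5b for Prdm14, Lrrc7 and Tex264 for Prdm1, and Stard13 and Znrf4 for Tfap2c. Wipi1 was 1 bp wider than Ifitm3, and Slc25a44 had the same width. None of these 10 had HA-Tex10 within 1 kb of a TSS, where 13.9% of all marked genes had it.

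The ranks depended on whether neighbouring intervals were joined. Prdm1, Tfap2c and Ifitm3 each had 2 promoter intervals, whereas Prdm14 and Kit had a single one. When intervals within 1 kb of each other were joined, the 2 promoter intervals of Prdm1 made 2169 bp and those of Tfap2c 1796 bp. Their percentiles then rose from 51.0 to 73.6 and from 22.8 to 61.9. At Ifitm3 the joined block of 1502 bp (percentile 50.4, from 11.6) also took in the 134 bp interval past the 3′ end, so it spanned most of the gene and was not a promoter mark alone. The percentiles of Prdm14 (44.5) and Kit (71.6) fell. Prdm1 then stood above Kit.

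**Figure D5:**
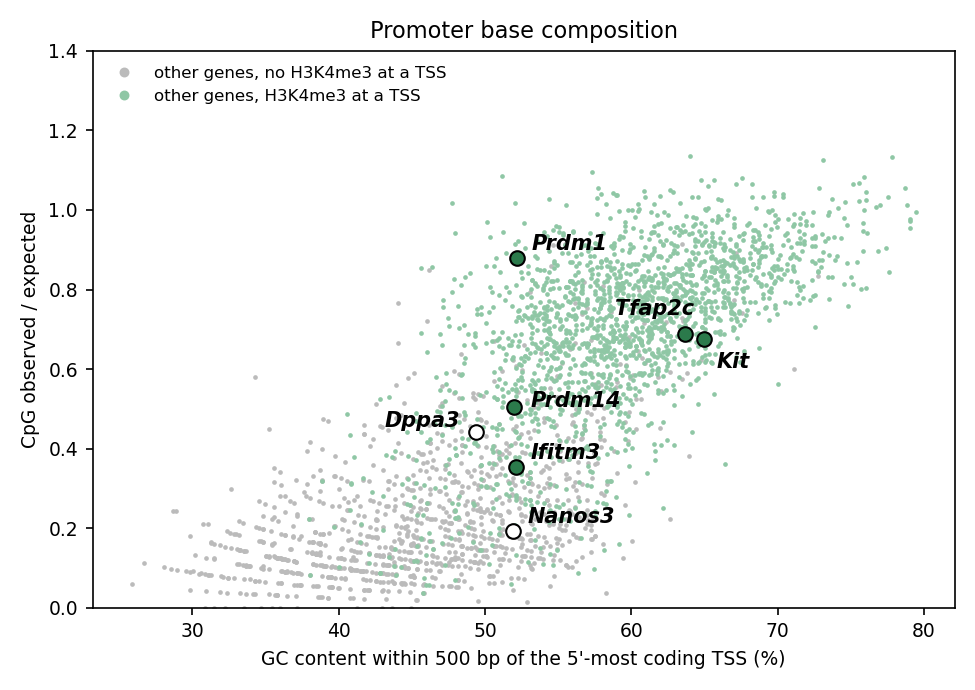
GC content (horizontal axis, %) and observed over expected CpG (vertical axis) within 500 bp of the 5′-most coding TSS, for the 7 genes (large points, filled where H3K4me3 lay within 1 kb of a TSS) and for 3000 genes drawn at random (small points, green where marked). The open points of Nanos3 and Dppa3 lie below the filled points of Prdm1, Tfap2c and Kit in CpG.

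The base composition of the promoters differed among the members. Within 500 bp of the 5′-most coding TSS, Kit had 65.0% GC and 70 CpG, Tfap2c 63.7% and 69, and Prdm1 52.2% and 60. Their ratios of observed to expected CpG were 0.675, 0.689 and 0.879. Prdm14 had a ratio of 0.504, Dppa3 of 0.443, Ifitm3 of 0.353 and Nanos3, with 13 CpG, of 0.193, against a median of 0.561 over all genes. Under a rule of over 50% GC and a ratio over 0.6, 3 members were CpG-rich and all 3 were marked. Of the 4 others, Prdm14 and Ifitm3 were marked and Dppa3 and Nanos3 were not. Over all genes, 96.8% of the 9848 CpG-rich promoters and 31.5% of the 12005 others had H3K4me3 within 1 kb of a TSS.

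The HA-Tex10 intervals themselves also varied. That of Kit had 52.2% GC and 11 CpG in 186 bp, that of Nanos3 in the gene 63.0% and 12 in 303 bp, and that of Ifitm3 57.1% and 5 in 219 bp, where the median interval had 59.0% GC and 10 CpG. In 180 bp at the centre of each interval, 12 short motifs were searched on both strands. They were the TATA box as TATAAA, the CCAAT box by its own letters, the SP box as GGGCGG, the E-box as CACGTG, the octamer as ATGCAAAT, the AP-2 motif as GCCNNNGGC, the PRDM14 motif as GGTCTCTAA, the TCF/LEF motif as CTTTGAT, the SMAD element as GGCGCC and the SMAD box as GTCTAGAC, with PRDM1 and NRF1 motifs given by name alone. The Kit centre held CACGTG, as did 4.39% of the 4238 centres, and its capitals CG can be seen near the end of the printed stretch. The Nanos3 centre held GGGCGG, as did 29.6% of centres, and the Ifitm3 centre held none of the 12. In the RefSeq promoter windows of 300 bp, Prdm1 held CCAAT (37.4% of 32851 windows), Ifitm3 GGGCGG (35.7%), and Kit and Nanos3 GGGCGG and the AP-2 motif GCCNNNGGC (16.6%), which overlapped each other in Nanos3 and not in Kit. A match is a description of the letters and not a binding site.

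Around these genes, 6 lists of 101 related genes were read in the same way. Of the 101, 82 had H3K4me3 at a TSS and 10 had HA-Tex10 there. Over all protein-coding genes the shares were 60.9% and 8.66%. Of 19 BMP and WNT signalling genes, 18 had H3K4me3 at a TSS and 2 had HA-Tex10, the beta-catenin gene Ctnnb1 (430 bp from a TSS) and Id1, a target of BMP signalling (300 bp). The widest marks of that list were at the receptor genes Bmpr1a (3145 bp) and Bmpr2 (2995 bp). Among the ligand genes, Bmp4 (573 bp), Bmp2 (523 bp) and Wnt3 (602 bp) had narrow marks. Those at the ligand genes Bmp8a (1232 bp) and Bmp8b (1183 bp) were nearer the median of all marked genes, 1342 bp. The marks at Smad9 (310 bp) and Id1 (337 bp) were the narrowest, and Wnt3a had none. Of 15 partners and regulators of germ cell fate, all had H3K4me3, from T, the mesodermal factor that acts upstream of Prdm1 and Prdm14, at 461 bp, and the receptor gene Fgfr3 at 916 bp, to Mycn at 6139 bp and Otx2 at 7855 bp. HA-Tex10 lay at the TSS of 1 of them, Prmt5, an arginine methyltransferase and partner of Prdm1. In the body plus 10 kb, 2 of the 19 signalling genes and 1 of these 15 had HA-Tex10 (16.9% of all genes).

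The 13 pluripotency factors had wider marks than the 5 marked members, which is given as a description only. H3K4me3 was at the TSS of 12 of them, Tcl1 being the exception, with a median width of 3478 bp, and 3 had HA-Tex10 there (Klf2, Sall4 and Tbx3). The widest were Sox2 (6675 bp) and Pou5f1 (6136 bp) and the narrowest Klf4 (2501 bp) and Nanog (2531 bp), all wider than the 2101 bp of Kit. HA-Tex10 lay in the body plus 10 kb of 7 of the 13 (16.9% of all genes), which adds Pou5f1, Nanog, Tdgf1 and Gdf3. Gdf3 counted only through the wholly repeated interval without H3K4me3 that was also the nearest to Dppa3. Of 11 surface and migration genes, 10 had H3K4me3 and 3 had HA-Tex10 at the TSS, the adhesion genes Cdh1 and Epcam and the tetraspanin gene Cd9, at 46, 0 and 45 bp. In the body plus 10 kb, 5 of the 11 had HA-Tex10, which adds Alpl and Pecam1. Klf2 and Cdh1 lie on chromosome 8, where 30.0% of genes had HA-Tex10 at a TSS and 50.8% had it in the body plus 10 kb. Kitl, the ligand of Kit, had a mark of 971 bp and its nearest HA-Tex10 interval was 554 kb away. The widest of that list were Epcam (2916 bp) and Cdh1 (2169 bp), the narrowest Fut4 (428 bp) and Itgb3 (763 bp), and Pecam1 was unmarked.

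Of 12 later germ cell genes, 4 had H3K4me3 at a TSS, Dnd1 (1351 bp), Tdrd5 (824 bp), Tdrd7 (669 bp) and Sycp3 (506 bp). HA-Tex10 lay at a TSS or in the body plus 10 kb of 0 of them, where 8.66% and 16.9% of all genes had it. In a random draw, 0 of 12 would allow a share of up to about 25% at a confidence level of 95%, but these genes were chosen. Ddx4, Dazl, Mael, Piwil2, Stk31, Rhox5, Rhox6 and Rhox9 had no mark. Over all protein-coding genes, 60.9% had H3K4me3 at a TSS. An unmarked coding TSS, as at Nanos3 and Dppa3, was therefore not particular to these genes. The last list held 31 genes, most of them paralogs of members and the rest (Dppa2, Dppa4 and Dppa5a) sharing only a name stem with Dppa3. Of these, 23 were marked and 1, Ifitm2, had HA-Tex10 at its TSS, while 7 of the 31 had HA-Tex10 in the body plus 10 kb. The Ifitm2 interval of 525 bp, chr7:140955819-140956343, covered a TSS, and the mark there was 1784 bp wide against 553 bp at Ifitm3. Prdm10 (3142 bp) and Dppa5a (3088 bp) had the widest marks of that list, and Prdm8 (359 bp) and Ifitm1 (572 bp) the narrowest. Csf1r, Ifitm6, Nanos2, Pdgfrb, Prdm12, Prdm13, Tfap2b and Tfap2d had none.

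As a check of the label, H3K4me3 at a TSS was also counted for markers of other cells, where a mark does not show expression. It was present at 7 of 7 epiblast-like, 8 of 8 naive pluripotent, 6 of 8 mesoderm and 6 of 6 endoderm marker genes. Of 12 genes of unrelated tissues 0 had it, where 60.9% of all genes did. The limit of about 25% for 0 of 12 holds for a random draw only, and these genes were chosen too. The median widths were 3056 and 2622 bp for the epiblast-like and naive markers and 887 and 893 bp for the mesoderm and endoderm ones. The germ cell genes had a median width between these, 1363 bp, and 5 of 7 were marked. That count became 6 with a 2.5 kb window or with the TSS of every transcript. The 4 marker lists were not recounted under those settings, so the order of the shares is not read. Marker genes of these 4 lists were mostly marked too, so the interval lists alone do not set germ cells apart from the other cell types that such a culture can hold.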

How the data were processed

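ChIP-seq of day 2 PGCLCs was deposited as 3 lists of intervals in BED format, with start and end in bp and no score. Per the submitters' processing notes, Bowtie2 2.3.4.3, SAMtools 1.9, MACS2 2.1.2, HOMER and the build mm10 (GRCm38) were used. How replicates and inputs entered the lists is not given in the sources used here. The third list held the HA-Tex10 intervals that overlap H3K4me3 and served only as an alternative.

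Intervals were set against coding TSS of GENCODE M21 (start of a protein-coding transcript, 1 kb window, at least 1 bp shared). Distances run from a TSS to the nearest interval edge, counting from 1. Percentages over all 21853 genes give the background. Words of 32 bases occurring more than once in the assembled chromosomes marked repeated sequence, over 50% of words being mostly repeated. No test was made. Python 3.11.15, NumPy 2.4.6 and numba 0.67.0 were used, and the look-ups were tested on simulated data. Sequences came from RefSeq GRCm38.p6.

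The members, gene lists and motifs were chosen with earlier results of these data known. All members were described, and from each list the genes with HA-Tex10 at a TSS, the unmarked genes and the 2 widest and 2 narrowest marks were named, with others picked after their values were seen. The symbol Oct6 was not matched, and Pou3f1 stood for that gene. The alternatives varied the windows, TSS set, interval choice and width measure.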

Additional observations from a re-analysis of the deposited data

How the results depend on the processing

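No paired analysis was possible because the lists hold no replicates, and for the same reason none could be left out. The depth is unknown, so absent intervals were only not detected. Shares of all genes under the same setting are given in brackets. HA-Tex10 at a TSS, 1 member (Kit, 8.66%), became 2 with a 2.5 kb window (Kit and Ifitm3, 9.51%). It became 0 when the interval's centre had to lie in the window (8.57%) or with intervals at least as wide as the median (4.72%). It was also 0 with a 500 bp window (8.08%), an alternative chosen after seeing the data. HA-Tex10 in the body plus 10 kb, 3 members (16.9%), became 1 (Nanos3, 9.39%) with intervals at least as wide as the median. With a 50 kb flank it became 4 (31.9%), which added Dppa3. H3K4me3 at a TSS, 5 members (60.9%), became 6 with a 2.5 kb window (62.2%) and 6 with the TSS of every transcript (61.6%). It became 4 with intervals at least as wide as the median (49.8%). H3K4me3 in the body plus 10 kb, 7 members (70.7%), became 5 with intervals at least as wide as the median (58.9%), which lost Dppa3 and Ifitm3. The other alternatives left these counts as they were. The median width percentile of the 5 marked members, 51.0, became 46.2 with summed widths, 61.9 with neighbours merged and 55.5 with all bases in the body plus 10 kb. The median distance to HA-Tex10, 10634 bp, became 75878 bp with the third list, in which the interval near Dppa3 is missing because it meets no H3K4me3.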
